A study of Homo sapiens with 6 samples.

Results

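The genes described here are 41 genes of sterol and fatty acid synthesis and of sterol handling, among 16279 genes measured by RNA-seq in 12Z cells. They were chosen by name, as genes of these pathways, and not by a threshold on their values. The choice was made with earlier results of these data known. They comprise 20 cholesterol synthesis enzymes, 5 genes of the SREBPs and their sterol sensing, 9 genes of sterol transport, storage and efflux, and 7 genes of fatty acid synthesis. 12Z is an established human cell line of endometriotic epithelial cells. The Control group (n = 3 libraries) was left untreated, and the rhChem157S group (n = 3 libraries) received 10 ng/mL of recombinant human chemerin for 48 h. Both groups were the same single line, grown in medium with serum, which itself brings lipids, and no vehicle was named for the Control group. Chemerin is an adipokine, a protein that adipose tissue releases, and the comparison asked how it alters gene expression in endometrial epithelial cells. The libraries were labelled as biological replicates, numbered 1 to 3 in each group.

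Sterol regulatory element-binding proteins (SREBPs) are transcription factors that are made as membrane proteins of the endoplasmic reticulum. When cells have enough sterol, the escort protein SCAP and the INSIG proteins keep them there, and when sterol is short SCAP carries them to the Golgi, where proteases free the part that enters the nucleus. The SREBP encoded by SREBF2 mainly drives genes of cholesterol synthesis and that encoded by SREBF1 mainly genes of fatty acid synthesis, while INSIG1 is itself a target and so closes a feedback loop. The liver X receptors NR1H2 and NR1H3 respond to oxysterols and drive genes that move cholesterol out of cells. In the endometrium, cholesterol is the raw material of steroids and polyunsaturated fatty acids are that of prostaglandins.

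SREBPs bind sterol regulatory elements, often beside sites of the factors NF-Y (core CCAAT) and Sp1 (core GGGCGG). These letters were searched on both strands in RefSeq windows of 250 bases before to 50 bases after each start site (build GRCh38.p14). Of the 41 genes, 36 had a window, with 52 windows in all. The sterol regulatory element written as TCACNCCAC stood in 1.92% of the members' windows and in 1.13% of the 35116 windows of all genes, and SREBF2 was the 1 member that held it. The shorter CACNCCAC, searched after the values were seen and contained in the longer motif, stood in 15.4% of the members' windows against 5.87% of all, in 7 genes (ABCA1, ACACA, IDI1, INSIG1, SC5D, SCD and SREBF2). CCAAT stood in 55.8% against 34.6% of windows and GGGCGG in 84.6% against 45.0%. The windows of all genes covered 27305 genes, more than were measured here, and were not matched to the members in expression. CACCCCAC, which overlaps both of the first motifs, stood in 3.85% against 2.79%. These matches describe letters and were not tested for binding.

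The upstream stretches of 4 members are shown because these genes carry the contrasts described further on. SREBF2 was shown for its match, and the other 3 were chosen after their values were seen. INSIG1 is the feedback target, MSMO1 is a cholesterol synthesis enzyme with several CCAAT boxes, and ABCA1 is the efflux gene of the liver X receptors. Each stretch ends before the gene's first annotated exon, runs 5′ to 3′ on the gene's strand, and has the marked motifs in capitals. The SREBF2 stretch (chr22:41832855-41833078, plus strand) has TCACNCCAC starting 133 bases before the start site and an inverted CCAAT 106 bases before it, and it overlaps an exon of the antisense gene SREBF2-AS1.
SREBF2: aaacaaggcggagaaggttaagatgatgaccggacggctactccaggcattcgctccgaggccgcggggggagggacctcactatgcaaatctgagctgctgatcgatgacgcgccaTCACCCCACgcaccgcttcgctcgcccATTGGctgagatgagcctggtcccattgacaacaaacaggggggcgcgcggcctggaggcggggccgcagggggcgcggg
The INSIG1 stretch (chr7:155297628-155297775, plus strand) has an inverted CACNCCAC 208 bases before the start site and an inverted CCAAT 170 bases before it.
INSIG1: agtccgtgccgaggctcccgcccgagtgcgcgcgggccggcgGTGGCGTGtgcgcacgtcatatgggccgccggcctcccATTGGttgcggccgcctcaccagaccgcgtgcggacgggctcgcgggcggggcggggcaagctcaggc
The MSMO1 stretch (chr4:165327419-165327622, plus strand) has CCAAT boxes 185, 139 and 76 bases before the start site, the first of them inverted.
MSMO1: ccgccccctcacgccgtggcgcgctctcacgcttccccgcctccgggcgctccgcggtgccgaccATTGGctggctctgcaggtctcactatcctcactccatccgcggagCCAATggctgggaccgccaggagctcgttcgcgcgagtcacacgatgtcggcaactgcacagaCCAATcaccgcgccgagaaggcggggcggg
The ABCA1 stretch (chr9:104928238-104928405, minus strand) has CACNCCAC 228 bases before the start site.
ABCA1: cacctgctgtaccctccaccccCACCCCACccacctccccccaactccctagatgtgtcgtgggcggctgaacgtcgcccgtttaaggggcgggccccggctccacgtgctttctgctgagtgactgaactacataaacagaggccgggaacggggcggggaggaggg

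The libraries held from 35430881 to 38341643 counts. Pearson correlations of log2 CPM (counts scaled to the library total) between libraries, taken across genes, ran from 0.948 to 0.990, and rhChem157S library 3 stood furthest from the rest. Among 7 epithelial markers (summed level 1596 to 1866 FPKM in the Control and 1760 to 1976 FPKM in the rhChem157S libraries) the keratins KRT8 (748 to 966 FPKM) and KRT18 (555 to 640 FPKM) were high in every library, and on the TMM-scaled log2 CPM scale all rhChem157S libraries were above all Control libraries in KRT8 and in KRT19 (log2 fold changes 0.29 and 0.27), whereas in FPKM the groups overlapped. CDH1 and EPCAM were under 1 FPKM in every library and had all rhChem157S libraries below all Control libraries on both scales (log2 fold changes -1.14 and -1.46). None of these 4 passed the edgeR or DESeq2 threshold. MUC1 was at 12.7 ± 2.20 against 7.85 ± 1.73 FPKM, with a log2 fold change of -0.57 ± 0.17 (SE) and a DESeq2 adjusted p of 0.0395. The summed level of 8 stromal and mesenchymal markers was 2158 to 2266 FPKM in the Control libraries and 2954 to 4152 FPKM in the rhChem157S libraries, with VIM at 899.6 ± 83.5 against 2352 ± 871 FPKM. Without VIM the other 7 summed to 1186 to 1385 FPKM against 905 to 1447 FPKM. Most of that sum was COL1A1, with means of 1042 against 965 FPKM and overlapping groups. COL1A2 had means of 115 against 77.4 FPKM, and its groups overlapped, as did those of DCN, PDGFRB and THY1. CDH2 had means of 52.8 against 63.3 FPKM, with all rhChem157S libraries above all Control libraries. DES was low and went the other way, at 1.00 ± 0.0902 against 0.215 ± 0.0471 FPKM. The summed level of 4 leukocyte markers was 122 to 171 FPKM against 92.7 to 136 FPKM. Of these, CD68 was at 97.0 ± 33.5 against 95.6 ± 21.9 FPKM, CD14 at 43.2 ± 7.51 against 14.3 ± 7.32 FPKM and PTPRC near 0. That of the 4 endothelial markers was 0.448 to 0.739 FPKM against 0.157 to 0.295 FPKM in sum. The part of these markers in the results was not tested.

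Of the 41 genes, 40 passed the filter on low counts. ABCG1, a cholesterol exporter induced by liver X receptors, did not, with 7, 2 and 1 counts in the Control libraries and 1, 2 and 1 counts in the rhChem157S libraries. The other members had from 127 to 60619 counts per library. Levels are given as FPKM, which scale the count by gene length and library total and so allow levels of different genes to be set side by side. Where 2 FPKM values are set against each other, they are the means ± SD of the 3 Control and of the 3 rhChem157S libraries. Differences are log2 fold changes of rhChem157S against Control from edgeR's quasi-likelihood test on the counts. In cells treated with rhChem157S, 34 of the 40 genes (85%) had a lower level by the sign of the log2 fold change, against 48.3% of the 13311 genes tested, and their median was -0.41 against 0.012 for all genes. With 1 library left out the members' median was between -0.65 (without rhChem157S library 1) and -0.21 (without rhChem157S library 3). The members took 0.784%, 0.725% and 0.509% of all counts in Control libraries 1 to 3 and 0.584%, 0.433% and 0.325% in rhChem157S libraries 1 to 3, so that the groups overlapped in that share. In bulk RNA, a lower level per cell and fewer cells with a high level cannot be told apart.

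None of the 40 members passed an adjusted p of 0.05 with edgeR (Benjamini-Hochberg over all 13311 genes), where 0.0301% of all genes did. The members' edgeR adjusted p ran from 0.0948 for INSIG2 to 0.958 for ACLY. At an unadjusted edgeR p under 0.05, 13 members (32.5%) were lower, against a background of 11.4%, and 2 members (5%), ABCA1 and ELOVL6, were higher, against 11.4%. DESeq2 gave 8 members (20%) with an adjusted p under 0.05 and a lower level, against 5.47% of the genes for which it gives an adjusted p, and 0 members with a higher level, against 3.9%. The 8 were CYP51A1, MSMO1, SC5D, SCAP, INSIG1, INSIG2, FADS1 and FADS2. Over the 22 alternative analyses the adjusted p of these 8 genes ran from 7.18e-10 to 0.445. With the replicate number as a block, edgeR called 0 members and DESeq2 called 21 (52.5%, against 11.4% of all genes). Leaving out 1 library changed the calls. Without rhChem157S library 1, edgeR called 6 members (15%) and DESeq2 called 21 (52.5%). Calls over all genes were then also more frequent, at 6.24% and 19.4%. Both tools called 0 members without Control library 1 or Control library 2, where DESeq2 called 5.04% and 2.23% of all genes. DESeq2 called 1 member (INSIG2, 2.5%) without rhChem157S library 2, against 3.996% of all genes. It called 8 members (20%) without Control library 3, against 3.71% of all genes. Without rhChem157S library 3 it also called 8 members (20%, 7 lower and ABCA1 higher), but there 13.02% of all genes were called.

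The 3 rhChem157S libraries lay all below the 3 Control libraries in 8 members (20%), close to the 16% of all genes that did so. These were IDI1, CYP51A1, TM7SF2, MSMO1, SC5D, SCAP, INSIG2 and MYLIP. The reverse held for LBR and SOAT1 (5%, against 16.5% of all genes). Overlap was judged on log2 CPM after TMM scaling, the library factors of edgeR, which the FPKM do not carry. In FPKM the count was 12 members lower (30%, against 25.1% of all genes in FPKM) and 0 higher (against 7.36%), since PMVK, INSIG1, NR1H2 and FADS1 no longer overlapped and LBR and SOAT1 did. With fewer libraries overlap becomes rarer for all genes. Without Control library 3 the groups did not overlap in 25 members, of which 23 were lower (57.5%, against 21.3% of all genes in that analysis). Without rhChem157S library 1 they did not overlap in 34 members, of which 29 were lower (72.5%, against 25.4% of all genes).

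**Figure D1:**
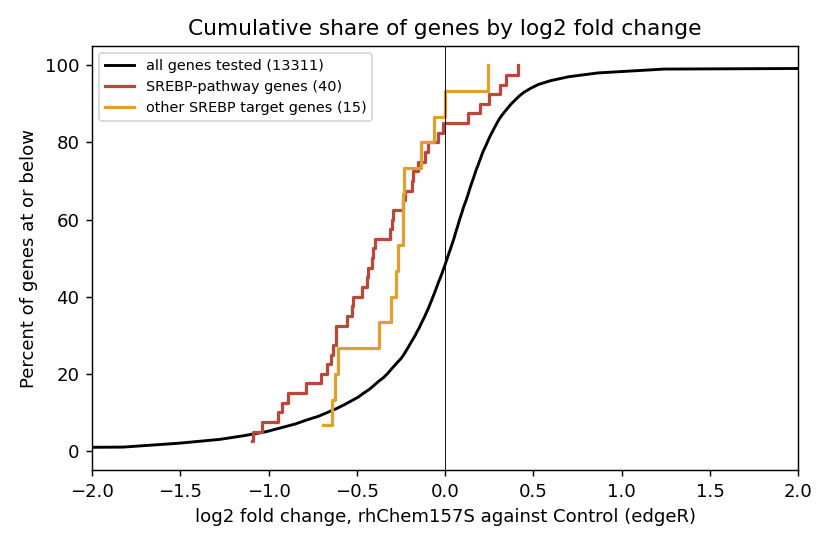
Cumulative share of genes (y axis, percent) at or below each log2 fold change of rhChem157S against Control (x axis, edgeR) for all 13311 genes tested, the 40 tested SREBP-pathway genes and 15 other SREBP target genes. Both SREBP lines lie to the left of the line of all genes from -0.5 upwards and cross 0 with most of their genes below it, with medians of -0.41 and -0.27 against 0.012.

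The members varied together between libraries in both groups. The median difference from the Control mean over the 40 genes was 0.22, 0.058 and -0.24 on the log2 scale in Control libraries 1 to 3 and -0.071, -0.42 and -0.79 in rhChem157S libraries 1 to 3. Control library 3 thus lay below rhChem157S library 1, and the group ranges of this median overlapped. Control library 3 was the lowest Control library in 36 of the 40 members (90%), against 39.0% of all genes. Library 3 was the lowest of its group in both groups in 29 members (72.5%), against 20.8% of all genes. In 26 of the 40 members rhChem157S library 3 was the lowest of the 6 libraries, a larger share than the 4284 of the 13311 genes tested. The median SD of log2 CPM within the Control group was 0.25 for the members against 0.12 for all genes, and within the rhChem157S group it was 0.36 against 0.21. The difference between the group means was larger than the range within either group for 5 members (12.5%), against 17.4% of all genes. The members were more abundant than most genes, and among the 5694 genes with a mean of at least 10 FPKM the median log2 fold change was 0.094, with 33.8% lower. Of the 30 members above that level 27 (90%) were lower, with a median of -0.41, and in 16.7% of the 30 all rhChem157S libraries lay below all Control libraries, against 10.2% of those genes.

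**Figure D2:**
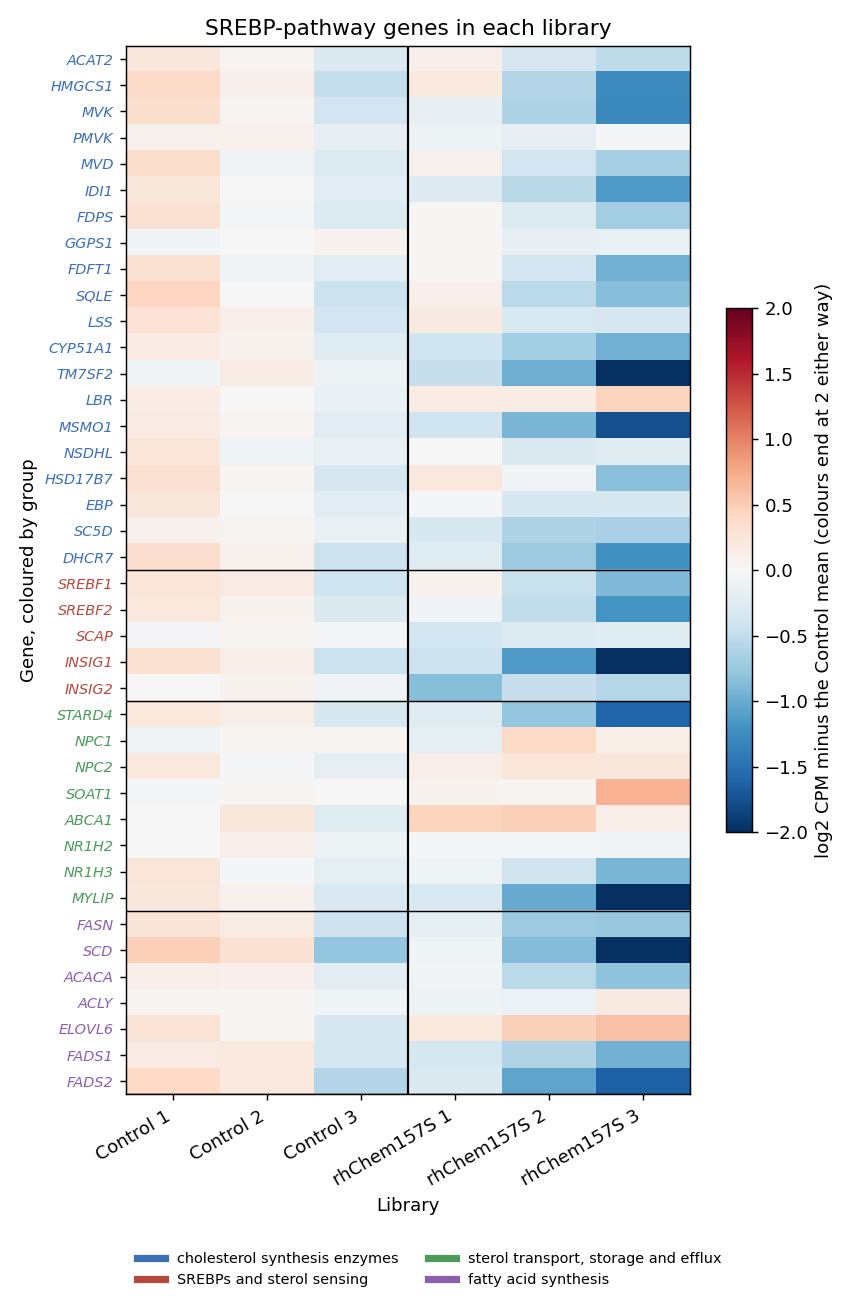
Heat map of the 40 tested genes (rows, in 4 groups) in the 6 libraries (columns), coloured by log2 CPM minus the mean of the 3 Control libraries, with colours ending at 2 either way. Control library 3 is blue in most rows and rhChem157S library 3 is the deepest blue in most enzymes. LBR, NPC2, SOAT1, ABCA1 and ELOVL6 lie above the Control mean in every rhChem157S library, SOAT1 only slightly in libraries 1 and 2.

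**Figure D3:**
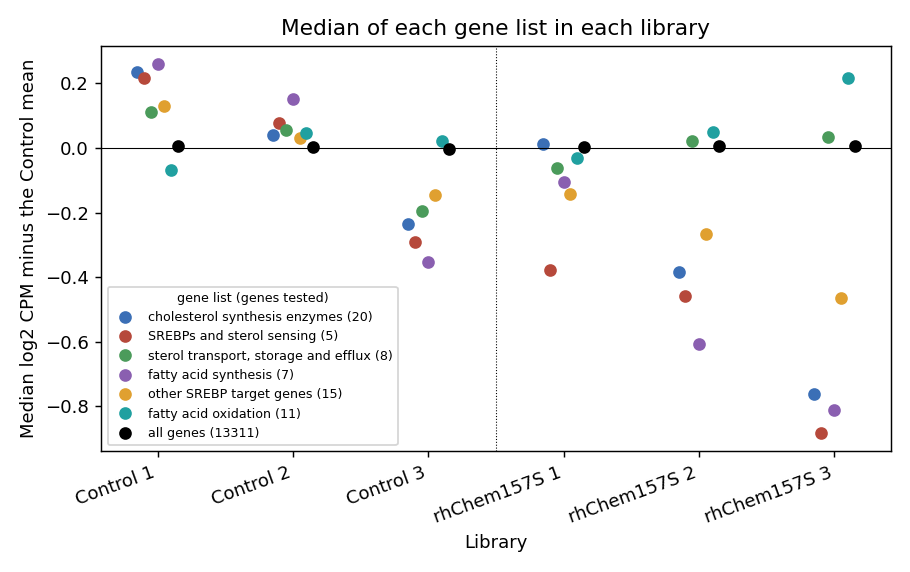
Median log2 CPM minus the Control mean (y axis) of each gene list in each of the 6 libraries (x axis), with the number of genes tested in the legend. The medians of the synthesis and sensing genes are at 0.22 to 0.26 in Control library 1 and at -0.88 to -0.76 in rhChem157S library 3, while those of sterol transport lie between -0.19 and 0.11 and the median of all genes lies close to 0.

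Of the SREBPs and their sensing apparatus, 5 of 5 genes had a lower level in rhChem157S-treated cells, with a median log2 fold change of -0.52. INSIG1 (chr7:155297776-155310235 in GENCODE release 29, GRCh38), which holds SCAP in the endoplasmic reticulum, was at 63.5, 57.3 and 38.3 FPKM in Control libraries 1 to 3 and 37.1, 21.9 and 10.6 FPKM in rhChem157S libraries 1 to 3. The rhChem157S libraries 2 and 3 were lower than all others, and rhChem157S library 1 was close to Control library 3. The group means were 53.0 ± 13.1 against 23.2 ± 13.3 FPKM (SD, n = 3), and the log2 fold change was -1.09 ± 0.39 (SE), with an edgeR adjusted p of 0.169 and a DESeq2 adjusted p of 0.0289. It was the second-lowest fold change of all members, after TM7SF2.

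INSIG2 (chr2:118088452-118110997), a homolog with the same role that is not a classical SREBP target, was at 5.73, 6.11 and 5.52 FPKM in Control libraries 1 to 3 and 3.05, 3.91 and 3.35 FPKM in rhChem157S libraries 1 to 3. All rhChem157S libraries lay below all Control libraries, and here rhChem157S library 1 was the lowest of the 6. Its log2 fold change was -0.62 ± 0.14 (SE), with an edgeR adjusted p of 0.0948 and a DESeq2 adjusted p of 0.00468, the smallest of the members in either test. SCAP (chr3:47413694-47477126), the sterol-sensing escort of the SREBPs, was at 27.4, 29.8 and 28.0 FPKM in Control libraries 1 to 3 and 20.9, 21.9 and 20.6 FPKM in rhChem157S libraries 1 to 3. Its libraries were tight within each group and did not overlap between groups. The log2 fold change of SCAP was -0.30 ± 0.078 (SE), with an edgeR adjusted p of 0.115 and a DESeq2 adjusted p of 0.0317. INSIG2 and SCAP were thus among the 5 members whose difference was larger than the range within either group.

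SREBF2 (chr22:41833079-41907308) was at 65.7, 60.6 and 46.7 FPKM in Control libraries 1 to 3 and 52.3, 37.9 and 21.5 FPKM in rhChem157S libraries 1 to 3. Control library 3 was below rhChem157S library 1, so the groups overlapped. The means were 57.7 ± 9.86 against 37.2 ± 15.4 FPKM (SD, n = 3), and the log2 fold change was -0.52 ± 0.27 (SE), with an edgeR adjusted p of 0.292 and a DESeq2 adjusted p of 0.204. SREBF1 (chr17:17810399-17837002), whose isoforms were counted together, was at 51.1, 49.2 and 33.3 FPKM in Control libraries 1 to 3 and 43.8, 29.9 and 20.4 FPKM in rhChem157S libraries 1 to 3. It had the same order of libraries and the same overlap, with a log2 fold change of -0.39 ± 0.26 (SE), an edgeR adjusted p of 0.382 and a DESeq2 adjusted p of 0.345. Neither gene was called by either test.

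**Figure D4:**
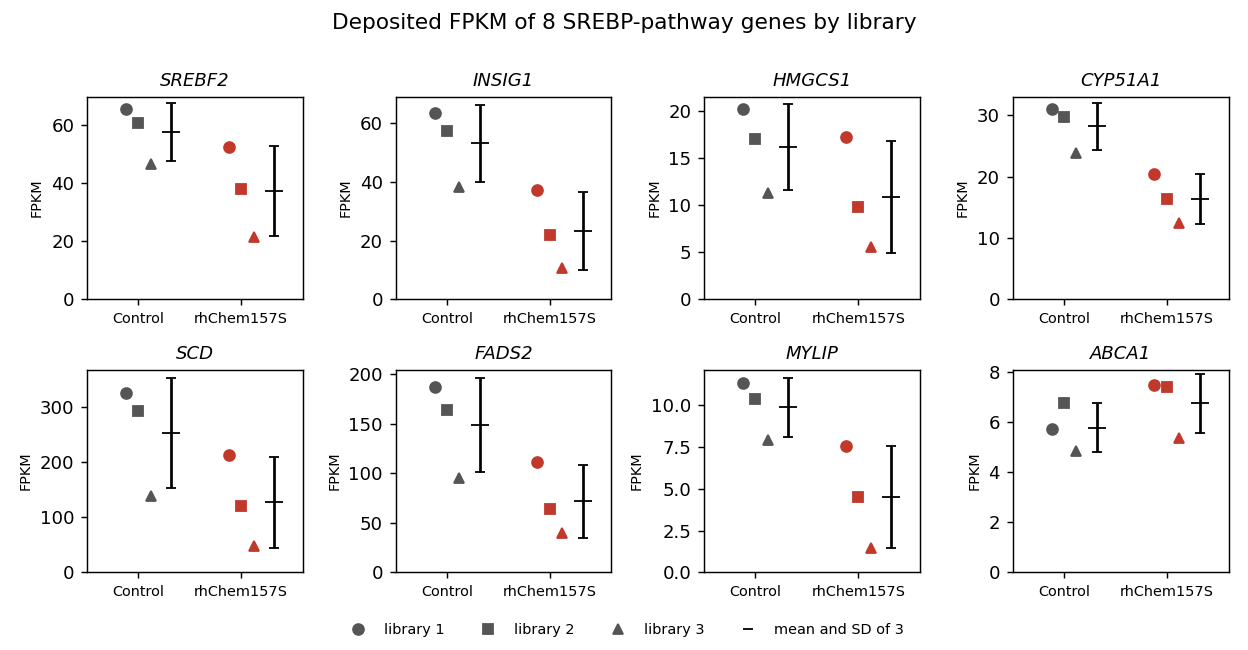
FPKM (y axis, from 0) of 8 genes in the 3 Control and 3 rhChem157S libraries, with 1 symbol for each library number and the mean ± SD of the 3 libraries beside them. CYP51A1 and MYLIP have all rhChem157S libraries below all Control libraries, SREBF2, HMGCS1, SCD and FADS2 overlap between groups through Control library 3 and rhChem157S library 1, and ABCA1 has its highest values in rhChem157S libraries 1 and 2.

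Among the cholesterol synthesis enzymes 19 of 20 genes were lower by sign, around a median log2 fold change of -0.36. At an unadjusted edgeR p under 0.05, 6 of the 20 were lower, against 11.4% of all genes. DESeq2's adjusted threshold was passed by 3 of the 20, all lower, against 5.47% of all genes lower. The early steps build mevalonate from acetyl units. ACAT2, the thiolase of the first condensation, had a log2 fold change of -0.24 ± 0.19 (SE) at 47.2 ± 8.19 against 36.9 ± 10 FPKM, and 52.3% of its exon bases are shared with genes of the opposite strand, whose reads cannot be told apart from its own unless strand was used in counting. HMGCS1 (chr5:43289395-43313512), the HMG-CoA synthase and a classical SREBP target, was at 20.2, 17 and 11.3 FPKM in Control libraries 1 to 3 and 17.2, 9.77 and 5.55 FPKM in rhChem157S libraries 1 to 3. The groups overlapped widely, with rhChem157S library 1 above Control library 2. The log2 fold change of HMGCS1 was -0.47 ± 0.37 (SE), with a 95% interval of -1.34 to 0.40, an edgeR adjusted p of 0.463 and a DESeq2 adjusted p of 0.407. The interval thus allows a strong decrease as well as a small increase.

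The mevalonate kinase MVK had a log2 fold change of -0.65 ± 0.29 (SE) (14.0 ± 3.26 against 8.28 ± 3.47 FPKM). The next kinase, PMVK, had -0.12 ± 0.13 (SE) (12.8 ± 1.22 against 10.8 ± 0.468 FPKM). MVD, which decarboxylates the product to the first isoprenoid unit, had -0.31 ± 0.23 (SE) (20.6 ± 4.57 against 15.3 ± 4.85 FPKM). The groups of these 3 overlapped, and PMVK was close to 0. IDI1, the isomerase of that unit, had -0.62 ± 0.22 (SE) (13.2 ± 1.99 against 7.97 ± 2.72 FPKM), and its groups did not overlap. FDPS, which joins isoprenoid units to farnesyl diphosphate, was the most abundant enzyme of this group at 90.5 ± 17.7 against 67.8 ± 19.8 FPKM, with -0.30 ± 0.21 (SE). GGPS1, which leads farnesyl diphosphate away to protein prenylation, had -0.10 ± 0.10 (SE) (7.07 ± 0.340 against 6.06 ± 0.720 FPKM). IDI1 had an edgeR adjusted p of 0.172, and those of the other 5 were above it, between 0.238 and 0.593. MVK and IDI1 thus had the lowest fold changes of this stretch of the pathway. FDPS has 8 named pseudogenes and GGPS1 shares 1422 exon bases with another gene on its strand, so some of their reads may be split or shared.

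FDFT1, the squalene synthase and first committed step to sterols, had a log2 fold change of -0.41 ± 0.25 (SE) (38.7 ± 7.46 against 27.0 ± 10.1 FPKM). SQLE, the squalene epoxidase and a rate-limiting step, had -0.41 ± 0.29 (SE) (33.5 ± 9.67 against 23.2 ± 9.19 FPKM), and LSS, which closes the rings to lanosterol, had -0.16 ± 0.20 (SE) (38.4 ± 8.40 against 31.7 ± 8.15 FPKM). In all of these, Control library 3 lay below rhChem157S library 1.

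The later steps turn lanosterol into cholesterol. TM7SF2, MSMO1, DHCR7 and CYP51A1 among them had the lowest fold changes of the group. NSDHL, HSD17B7 and EBP lay above the group's median of -0.36, and LBR was higher by sign. CYP51A1 (chr7:92112151-92134803), the lanosterol demethylase, was at 31.1, 29.7 and 23.8 FPKM in Control libraries 1 to 3 and 20.4, 16.3 and 12.4 FPKM in rhChem157S libraries 1 to 3. All rhChem157S libraries were lower than all Control libraries, and library 3 was the lowest of each group. The means were 28.2 ± 3.87 against 16.3 ± 4.0 FPKM (SD, n = 3), and the log2 fold change was -0.67 ± 0.17 (SE), with an edgeR adjusted p of 0.106 and a DESeq2 adjusted p of 0.00832. Of its 3584 exon bases 2844 are shared with another gene on the same strand, and it has 3 named pseudogenes, so its level is less certain than that of its neighbours in the pathway.

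MSMO1 (chr4:165327623-165343160) acts after CYP51A1 in the removal of methyl groups from the sterol ring. It was at 25.2, 23.6 and 19.4 FPKM in Control libraries 1 to 3 and 16.4, 11.2 and 5.74 FPKM in rhChem157S libraries 1 to 3. The groups did not overlap, but rhChem157S library 1 was closer to Control library 3 than to rhChem157S library 3. The log2 fold change of MSMO1 was -0.93 ± 0.31 (SE), with an edgeR adjusted p of 0.153 and a DESeq2 adjusted p of 0.0296. NSDHL and HSD17B7 act after MSMO1 in the same removal of methyl groups. Their log2 fold changes were -0.18 ± 0.14 (SE) (24.5 ± 3.49 against 19.8 ± 3.08 FPKM) and -0.19 ± 0.30 (SE) (4.15 ± 0.891 against 3.37 ± 1.31 FPKM). That of HSD17B7, which has 2 named pseudogenes, was positive without rhChem157S library 3.

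SC5D (chr11:121292453-121308694), the sterol desaturase near the end of the pathway, was at 4.66, 4.63 and 4.07 FPKM in Control libraries 1 to 3 and 3.41, 2.68 and 2.42 FPKM in rhChem157S libraries 1 to 3. The groups did not overlap, and the 3 Control libraries were close to each other. SC5D had a log2 fold change of -0.53 ± 0.13 (SE), with an edgeR adjusted p of 0.103 and a DESeq2 adjusted p of 0.0123. EBP, the sterol isomerase before it, had -0.23 ± 0.14 (SE) (62.1 ± 9.24 against 48.7 ± 8.14 FPKM), and DHCR7, the reductase after it, had -0.70 ± 0.27 (SE) (46.7 ± 11.7 against 26.5 ± 9.97 FPKM), with an edgeR adjusted p of 0.188 for DHCR7.

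The sterol reduction after CYP51A1 can be carried out by TM7SF2 or by LBR, and these differed in direction. TM7SF2 was at 13.9, 16.2 and 13.5 FPKM in Control libraries 1 to 3 and 10.1, 6.81 and 2.15 FPKM in rhChem157S libraries 1 to 3, so that its groups did not overlap and rhChem157S library 3 stood far below the rest. It had the lowest log2 fold change of the members, -1.10 ± 0.44 (SE), with an edgeR adjusted p of 0.199 and a DESeq2 adjusted p of 0.0634. LBR, a protein of the inner nuclear membrane with the same reductase activity, was the 1 enzyme of the group with a positive log2 fold change, 0.25 ± 0.12 (SE), at 13.7 ± 1.28 against 14.9 ± 0.991 FPKM and with an edgeR adjusted p of 0.264. The difference between the 2 genes was not tested.

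**Figure D5:**
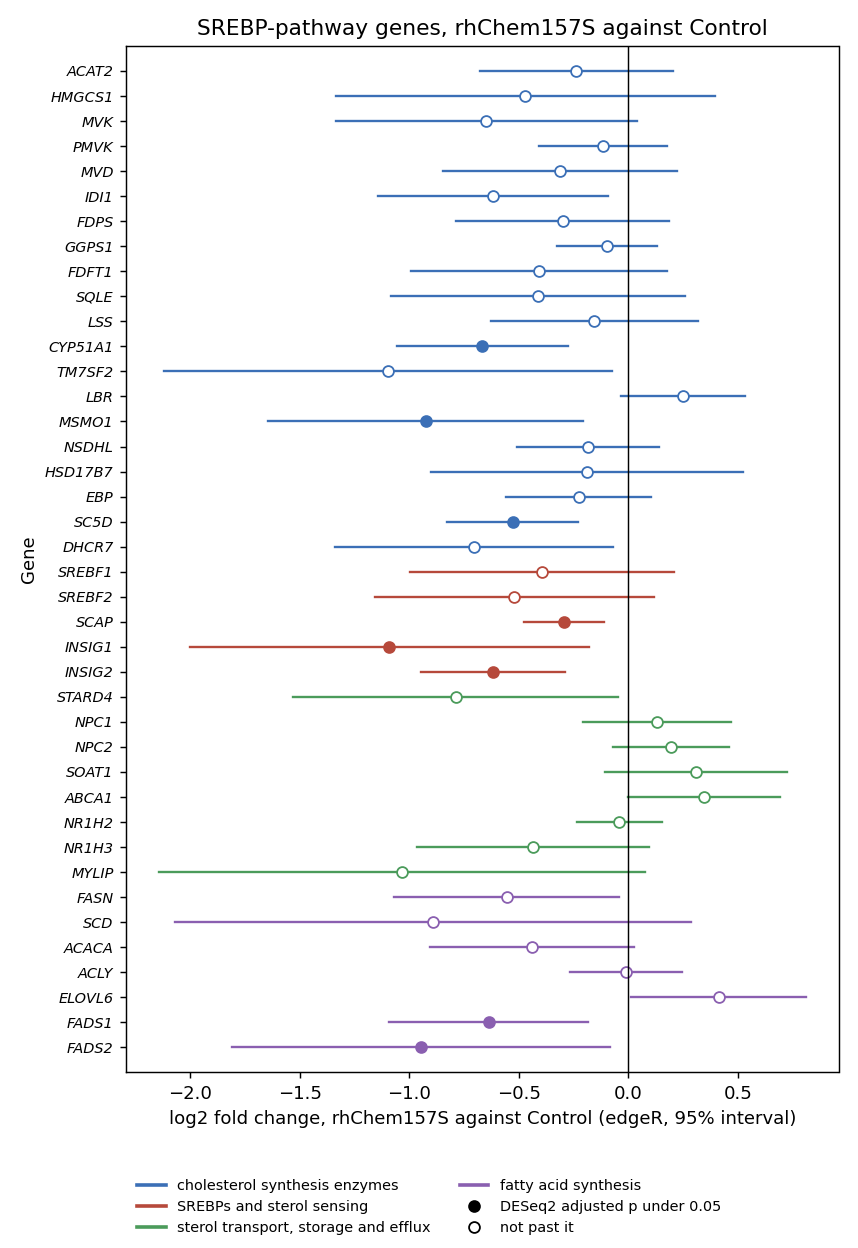
Log2 fold change of rhChem157S against Control (x axis, edgeR, point and 95% interval) for the 40 tested genes (y axis), coloured by group, with filled points where DESeq2's adjusted p is under 0.05. The 8 filled points all lie below 0, and 25 of the 40 intervals hold 0.

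In the fatty acid synthesis group 6 of 7 genes were lower by sign, around a median log2 fold change of -0.56. At an unadjusted edgeR p under 0.05, 3 of the 7 were lower, against 11.4% of all genes. DESeq2's adjusted threshold was passed by 2 of the 7, which were lower, against 5.47% of all genes lower. This group held the most abundant members. SCD (chr10:100347124-100364834), the desaturase that makes monounsaturated fatty acids, was at 326, 292 and 139 FPKM in Control libraries 1 to 3 and 212, 121 and 47.7 FPKM in rhChem157S libraries 1 to 3. Control library 3 was well below the other Control libraries and below rhChem157S library 1, so the groups overlapped. The group means were 252 against 127 FPKM, and the log2 fold change of -0.89 ± 0.50 (SE) had a 95% interval of -2.07 to 0.29, an edgeR adjusted p of 0.322 and a DESeq2 adjusted p of 0.374. The range of the libraries within either group was wider than this difference between groups.

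FADS2 (chr11:61792980-61867354) and FADS1 (chr11:61799625-61829318), neighbours on chromosome 11, are the desaturases that lead from essential fatty acids towards arachidonic acid. FADS2 was at 187, 165 and 95.3 FPKM in Control libraries 1 to 3 and 112, 64.2 and 39.6 FPKM in rhChem157S libraries 1 to 3. Its rhChem157S library 1 lay above Control library 3, and the other rhChem157S libraries lay below all Control libraries. The log2 fold change of FADS2 was -0.95 ± 0.37 (SE), with an edgeR adjusted p of 0.192 and a DESeq2 adjusted p of 0.0492. FADS1 was at 84.0, 87.7 and 59.6 FPKM in Control libraries 1 to 3 and 56.9, 46.4 and 33.7 FPKM in rhChem157S libraries 1 to 3. Control library 3 was again the lowest Control library and lay just above rhChem157S library 1 in FPKM, though not after TMM scaling. The log2 fold change of FADS1 was -0.64 ± 0.19 (SE), with an edgeR adjusted p of 0.135 and a DESeq2 adjusted p of 0.0278. The 2 genes share 490 exon bases on opposite strands, so a small part of their counts may be common.

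FASN (chr17:82078333-82098332), the fatty acid synthase, was at 96.7, 91.2 and 61.5 FPKM in Control libraries 1 to 3 and 68.9, 46.0 and 41.2 FPKM in rhChem157S libraries 1 to 3. The groups overlapped through Control library 3 and rhChem157S library 1. FASN had a log2 fold change of -0.56 ± 0.22 (SE), with an edgeR adjusted p of 0.197 and a DESeq2 adjusted p of 0.0909. ACACA, the acetyl-CoA carboxylase that feeds FASN, had -0.44 ± 0.20 (SE) (16.1 ± 2.15 against 11.0 ± 3.53 FPKM). ACLY, which makes cytosolic acetyl-CoA from citrate, was abundant at 117 ± 5.70 against 106 ± 7.11 FPKM and had -0.012 ± 0.11 (SE), a value whose sign changed in 7 of the 22 alternative analyses. ELOVL6, the elongase of saturated chains, was the member with the highest log2 fold change, 0.41 ± 0.17 (SE), at 5.54, 4.78 and 3.69 FPKM in Control libraries 1 to 3 and 5.10, 5.98 and 5.91 FPKM in rhChem157S libraries 1 to 3 and with an edgeR adjusted p of 0.211. Its groups overlapped, with Control library 1 above rhChem157S library 1.

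The sterol transport, storage and efflux genes were split, with 4 genes lower and 4 higher by sign and a median log2 fold change of 0.045. STARD4 (chr5:111496033-111512590), a carrier of cholesterol between membranes and a target of the SREBPs, was at 5.89, 5.60 and 4.09 FPKM in Control libraries 1 to 3 and 4.14, 2.77 and 1.45 FPKM in rhChem157S libraries 1 to 3. Control library 3 and rhChem157S library 1 were nearly equal, and the other rhChem157S libraries were lower. For STARD4 the log2 fold change was -0.79 ± 0.32 (SE), with an edgeR adjusted p of 0.202 and a DESeq2 adjusted p of 0.0803. NPC1 and NPC2, which bring cholesterol out of the lysosome, had 0.13 ± 0.14 (SE) (21.3 ± 1.00 against 21.3 ± 4.26 FPKM) and 0.19 ± 0.11 (SE) (93.6 ± 12.9 against 97.9 ± 4.38 FPKM), and the sign of NPC1 turned negative with scaling to library size alone, in both analyses of FPKM and without rhChem157S library 2. SOAT1, which esterifies cholesterol for storage, had 0.31 ± 0.18 (SE), and rhChem157S library 3 was the highest of its libraries at 10.9 FPKM.

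ABCA1 (chr9:104781002-104928237), which exports cholesterol to apolipoproteins, was at 5.71, 6.77 and 4.83 FPKM in Control libraries 1 to 3 and 7.46, 7.39 and 5.36 FPKM in rhChem157S libraries 1 to 3. The groups overlapped, with rhChem157S library 3 below Control libraries 1 and 2. The means were 5.77 ± 0.970 against 6.73 ± 1.19 FPKM (SD, n = 3), and the log2 fold change was 0.35 ± 0.15 (SE), with an edgeR adjusted p of 0.219 and a DESeq2 adjusted p of 0.186. MYLIP (chr6:16129125-16148248), a ubiquitin ligase induced by liver X receptors, was at 11.3, 10.4 and 7.91 FPKM in Control libraries 1 to 3 and 7.54, 4.51 and 1.44 FPKM in rhChem157S libraries 1 to 3. Its groups did not overlap, and rhChem157S library 3 stood far below the others. The log2 fold change of MYLIP was -1.04 ± 0.47 (SE), with an edgeR adjusted p of 0.243 and a DESeq2 adjusted p of 0.104. The receptors themselves had log2 fold changes of -0.042 ± 0.083 (SE) for NR1H2 (39.9 ± 2.99 against 35.5 ± 2.30 FPKM) and -0.44 ± 0.23 (SE) for NR1H3 (7.08 ± 1.06 against 4.83 ± 1.59 FPKM), with edgeR adjusted p of 0.780 and 0.289. ABCA1 and MYLIP, both targets of these receptors, thus had fold changes of opposite sign, a difference that was not tested.

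Of 15 other SREBP target genes of lipid metabolism, 14 had a lower level by sign, with a median log2 fold change of -0.27. This list, like the members, was chosen with earlier results of these data known. In 7 of them the rhChem157S libraries lay all below the Control libraries, against the 16% of all genes given above. DESeq2's adjusted threshold was passed by 4 (TMEM97, LPIN1, TMEM41B and ME1), all lower, against 5.47% of all genes lower. The adjusted threshold of edgeR was passed by 0. At an unadjusted edgeR p under 0.05, 7 were lower, against 11.4% of all genes. TMEM97, a sterol-responsive membrane protein, was at 30.6, 28.8 and 22.5 FPKM in Control libraries 1 to 3 and 19.9, 16.4 and 13 FPKM in rhChem157S libraries 1 to 3, and all rhChem157S libraries were below all Control libraries. Its log2 fold change was -0.61 ± 0.16 (SE), with an edgeR adjusted p of 0.112 and a DESeq2 adjusted p of 0.0146. LPIN1, a phosphatidate phosphatase, had -0.64 ± 0.19 (SE). ACSL3, which activates long-chain fatty acids, had -0.37 ± 0.12 (SE), and TMEM41B, a lipid scramblase, had -0.62 ± 0.19 (SE). Control library 3 was the lowest Control library in 14 of the 15 (93.3%, against 39.0% of all genes), as it was in most members.

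The 11 genes of SREBP cleavage and degradation did not follow the targets, with 8 higher by sign and a median log2 fold change of 0.17. At an unadjusted edgeR p under 0.05, 4 were higher and 2 lower, against 11.4% of all genes in each direction. The adjusted threshold of edgeR was passed by 0. ERLIN1, a membrane protein of the endoplasmic reticulum that restrains SREBP activation, was at 29.8, 30.5 and 31.7 FPKM in Control libraries 1 to 3 and 36.5, 39.9 and 39.9 FPKM in rhChem157S libraries 1 to 3. The groups did not overlap, and the libraries within each group were close. ERLIN1 had a log2 fold change of 0.47 ± 0.093 (SE), with an edgeR adjusted p of 0.0753 and a DESeq2 adjusted p of 0.00239. It was the only gene of the 11 past DESeq2's threshold, which 9.38% of all genes passed in either direction. MBTPS2, a protease that frees SREBPs from the membrane, had 0.30 ± 0.095 (SE) (5.63 ± 0.373 against 6.34 ± 0.446 FPKM). SAR1B, which builds the vesicles that leave the endoplasmic reticulum, had -0.25 ± 0.083 (SE) (8.30 ± 0.170 against 6.37 ± 0.579 FPKM).

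Among 17 tested of 19 genes of sterol trafficking and oxysterols, 9 were lower and 8 higher by sign, with a median log2 fold change of -0.0084. At an unadjusted edgeR p under 0.05, 5 were lower and 0 higher, against 11.4% of all genes in each direction. The adjusted threshold of edgeR was passed by 0. That of DESeq2 was passed by 2, SCARB1 and PLTP, which were lower, against 5.47% of all genes lower. SCARB1, a receptor that takes up cholesterol from lipoproteins, was at 40.8, 45.7 and 45.6 FPKM in Control libraries 1 to 3 and 31.9, 30.8 and 24.7 FPKM in rhChem157S libraries 1 to 3, and its groups did not overlap. Its log2 fold change was -0.47 ± 0.092 (SE), with an edgeR adjusted p of 0.0752 and a DESeq2 adjusted p of 0.00158. PLTP, a phospholipid transfer protein, had -0.54 ± 0.11 (SE) (43.9 ± 3.76 against 27.6 ± 4.16 FPKM), with an edgeR adjusted p of 0.0752 and a DESeq2 adjusted p of 0.00138. In both genes Control library 3 was not the lowest Control library, unlike in most members.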

How the data were processed

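RNA of 12Z cells was sequenced from 3 untreated (Control) and 3 rhChem157S-treated cultures. According to the submitters' processing notes and the paper's methods, reads were cleaned with fastp, aligned by HISAT2 to GRCh38.p13 and assigned to genes by HTSeq. Raw counts and FPKM were deposited by the authors for 16279 genes. Whether strand was used is not given in the sources used here. The FPKM equalled count over a fixed gene length and library total (within 0.001, relative) in 76321 of 76321 values of at least 20 counts. Reads shared with an overlapping gene or pseudogene can be split or lost in such counting.

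The main test was edgeR 4.0.16 in R 4.3.3 (TMM, filterByExpr with the group, quasi-likelihood with legacy=TRUE, Benjamini-Hochberg over 13311 genes, log2 CPM with a prior count of 2). Intervals are the log2 fold change with its standard error at the 95% level of the test. Alternatives were DESeq2 1.42.0, the study's tool, limma 3.58.1 on the FPKM (log2 with a pseudocount of 1 or 0.1), other scaling and filters, the replicate number as a block, and each library left out. For a single value, 3 against 3 cannot give an exact permutation p under 0.1 (two-sided). The p-values set the difference between the groups against the spread between these cultures.

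The members and the gene lists were chosen with earlier results of these data known. All members are named. Full values are given for INSIG1, SREBF1, SREBF2, HMGCS1, ABCA1, SCD and FASN and for the 3 members of each group with the smallest edgeR p, and of the other lists at most 4 genes with the smallest p are named, apart from markers. TM7SF2, ELOVL6 and ME1 were added after their values were seen. Some genes of these lists are not reported here.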

Additional observations from a re-analysis of the deposited data

How the results depend on the processing

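Over 22 alternative analyses, 36 of the 40 members had the same sign of the log2 fold change in every one, and 16 of the 880 values changed sign, in HSD17B7, NPC1, NR1H2 and ACLY. The number of members with an adjusted p under 0.05 was 0 with edgeR and 8 with DESeq2, and from 0 to 21 when 1 library was left out in either tool. Members whose groups did not overlap numbered 10 in the main analysis and from 10 to 34 with 1 library left out, where the share of all genes was 33.4% to 49.8%, against 32.5% in the main analysis. Without rhChem157S library 1 edgeR called CYP51A1, MSMO1, SC5D, INSIG1, ACACA and FADS2. Over all genes, edgeR called 4 and DESeq2 1319, edgeR with legacy=FALSE 15, edgeR without a filter on low counts 17, and limma 116 on log2(FPKM + 1) and 21 on log2(FPKM + 0.1), while leaving out 1 library gave from 0 to 2651. The median log2 fold change of the transport genes, 0.045, was -0.091 on log2(FPKM + 1), -0.093 on log2(FPKM + 0.1) and -0.085 with scaling to library size alone, where the median of all genes was -0.12, and -0.044 without rhChem157S library 2. The medians of the other groups kept their sign, but leaving out 1 library moved some by over 1.5 times. That of all members, -0.41, was -0.27 without Control library 1, -0.65 without rhChem157S library 1 and -0.21 without rhChem157S library 3. That of the cholesterol synthesis enzymes, -0.36, was -0.15, -0.60 and -0.18 without the same libraries, and that of the SREBPs and sensing genes, -0.52, was -0.32 without rhChem157S library 3.

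The deviations of same-numbered libraries from their group means had correlations across genes of 0.241, 0.00147 and 0.247. Libraries numbered 1 correlated best with each other across the groups, and so did libraries numbered 3, while library 2 of each group correlated best with another number. Since 1 of the correlations was near 0, the numbers were not taken as pairs in the main test, though this does not show that they were unpaired. The labels do not say whether the numbers mark cultures handled together. With the replicate block, edgeR called 0 members and 1 gene. At an unadjusted edgeR p under 0.05 there were 28 of the 40 members, against 3367 of 13311 genes. Of these members 27 were lower (67.5% of the 40, against 13.3% of all genes). DESeq2 with the block called 21 members (52.5%) and 1490 genes (11.4%).

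A single cell line, 1 dose and 1 time were measured in 3 libraries per group. The 40 tested members had at least 127 counts in every library, and ABCG1 was under the floor of 3 counts in 5 of its 6 libraries.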

Other observations

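The genes that use isoprenoids, the side products of the same pathway, and the genes that burn fatty acids did not show the members' pattern by sign. Of 11 genes of isoprenoid use, 8 were higher by sign with a median log2 fold change of 0.086. The adjusted threshold was passed by 0 of them with edgeR or DESeq2. At an unadjusted edgeR p under 0.05 there were 0, against 11.4% of all genes in each direction. PDSS1, which makes the tail of ubiquinone, was at 2.45, 2.31 and 2.34 FPKM in the Control libraries and at 2.70, 2.56 and 4.67 FPKM in the rhChem157S libraries, the highest value being that of rhChem157S library 3. Of 11 tested genes of fatty acid oxidation, 7 were higher by sign with a median of 0.064. HADHA, a subunit of the mitochondrial trifunctional protein, was at 64.4, 62.6 and 60.2 FPKM in the Control libraries and at 71.8, 68.6 and 66.6 FPKM in the rhChem157S libraries, without overlap. Its log2 fold change was 0.27, with an edgeR adjusted p of 0.119 and a DESeq2 adjusted p of 0.0302. CPT1A, which admits fatty acids to mitochondria, was at 4.49 to 5.29 FPKM in the other 5 libraries and at 12.7 FPKM in rhChem157S library 3, the library in which the median of the members was lowest.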
